A study of Mus musculus with 10 samples.

Results

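Phox2a, Tbx2, Tbx3 and Tbx20 are transcription factor genes associated with visceral and branchial motor neurons. They were taken as a named list of 4 genes out of the 48974 genes to which counts could be assigned, and all 4 were among the 17838 genes that passed the filter on low counts. Tbx2, which had 0 counts in 3 cdKO samples, met that filter through the control samples alone. RNA had been sequenced from YFP-positive cells sorted from e10.5 mouse spinal cord, with 5 control and 5 cdKO samples. Control cells carried Olig2-Cre+/-, Rosa26R-YFP+/-, Oc1+/Flox and Oc2+/Flox, so each Onecut gene had a floxed and a wild-type allele. The cdKO cells carried the same Olig2-Cre+/- and Rosa26R-YFP+/- alleles together with Oc1-/Flox and Oc2-/Flox. Cre and the reporter were thus present in both groups, and controls were not wild type. Olig2-Cre acts in motor neuron progenitors, and the study also saw YFP in V3 interneurons, so the sorted cells were not motor neurons alone. The labels do not say whether samples came from separate embryos or litters, so p-values measure the spread between these samples. In a sorted pool, fewer cells expressing a gene and less RNA per cell cannot be told apart.

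Motor neurons of the hindbrain and spinal cord fall into somatic neurons, which innervate skeletal muscle of the trunk and limbs, and branchial and visceral neurons, which innervate muscles derived from the pharyngeal arches and autonomic ganglia. Phox2a is a paired-like homeodomain factor of branchial and visceral motor neurons and of noradrenergic neurons. Tbx20 is a T-box factor of cranial visceral and branchial motor neurons and also of the heart. Tbx2 and Tbx3 are closely related T-box factors, known chiefly as transcriptional repressors, and both are also used in limb, heart and other organs.

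Because the T-box genes are related in sequence, the longest base runs shared between coding sequences of Tbx2, Tbx3 and Tbx20 are shown first, as a measure of how far reads could be confused between them. Each line is read from a GENCODE M21 transcript, 5′ to 3′, placed on GRCm38, with the shared run in capitals. The first pair joins Tbx3, on the plus strand at chr5:119675573-119675589, and Tbx20, on the minus strand at chr9:24758853-24758869, and shares 17 bases.
Tbx3: aactctATGCATAAGTACCAGCCgcggtt
Tbx20: aattcaATGCATAAGTACCAGCCacgggt
The next pair joins Tbx2, on the plus strand at chr11:85833431-85833444, and Tbx3, on the plus strand at chr5:119672334-119672347, and shares 14 bases.
Tbx2: aggtgacgCTGGAGGCCAAGGAgctgtggg
Tbx3: aggtgcacCTGGAGGCCAAGGAactttggg
Both runs are shorter than the read length given in the labels. Overlap with a neighbouring gene could also mix counts, since strand had not been used in counting. The last exon of Phox2a shares 95 of its 1019 bases (9.32%) with Inppl1 on the opposite strand, and that exon held 59.0% of all Phox2a counts. For Tbx3, 14.3% of counts lay on bins shared with the antisense gene Tbx3os1, and no such bins were found for Tbx2 or Tbx20.

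Totals per sample ranged from 63932395 to 107709534 counts in control and from 72315782 to 84249157 in cdKO samples. Replicate 5 of the cdKO group stood apart: 198569 exon bins had counts there, and 243970 to 271591 had them in the 9 remaining samples. Control replicates 1 and 5 stood apart in summed lumbar Hox levels, at 0.873 and 1.23 CPM (gene counts over the TMM-adjusted library total) against 13.3 to 94.2 in the other samples. Whether they differed in level along the body axis was not tested. In the check of the targeted genes, Onecut3, which depends on the other two, had 29 to 68 counts in control and 0 to 3 in cdKO samples. Mean Onecut1 was 5.84 ± 2.82 CPM in control and 2.71 ± 1.26 in cdKO samples (SD, n = 5 each), whereas Onecut2 was not lower (4.80 ± 3.34 and 6.91 ± 7.14). The study ascribes the Oc2 sequences in its own comparison to truncated transcripts that yield no working peptide. It also reports that OC-2 protein was lost from Isl1-positive motor neurons of cdKO embryos. Isl1, Mnx1 and Olig2 were measured in every sample, at mean control levels of 225, 55.6 and 66.0 CPM, so the defining genes of the motor neuron lineage were present.

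Genes were compared between cdKO and control samples by the quasi-likelihood test of edgeR, adjusted by Benjamini-Hochberg across the 17838 that could be tested. None reached an adjusted p under 0.05, a background of 0%. With no adjustment, 745 genes (4.18%) at p under 0.05 were higher in cdKO samples and 146 (0.818%) were lower. The higher genes made up 83.6% of these, a share that rested on 1 library: without cdKO replicate 5 they were 109 of 428, or 25.5%, and 319 were lower. With scaling by library size alone the share was 60.2% of 633 genes, and with limma-voom 50.6% of 322. Against this background of 4.99% in either direction, Tbx2 and Tbx3 were past the unadjusted threshold, Tbx2 lower and Tbx3 higher in cdKO samples, and Phox2a and Tbx20 were not. As Tbx2 entered the test through its control samples alone, its place past that threshold is a description and is not counted as support. Without cdKO replicate 5, Tbx3 was no longer past it (unadjusted p = 0.0963 by edgeR). The same held without cdKO replicate 1 (unadjusted p = 0.165 by edgeR) and without any 1 of control replicates 2 to 5 (0.0600 to 0.0922 by edgeR). DESeq2 called 19 genes over the whole table at an adjusted p under 0.05, and none of the 4 genes was among them.

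**Figure D1:**
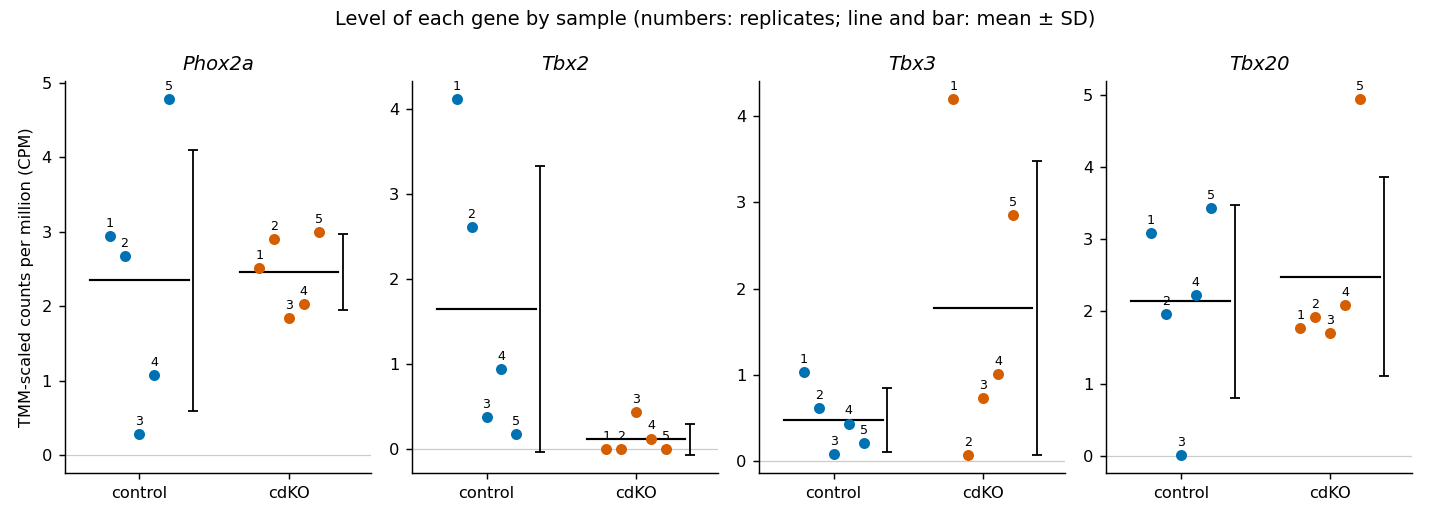
TMM-scaled CPM of Phox2a, Tbx2, Tbx3 and Tbx20 (vertical axes, linear) in the 5 control (blue) and 5 cdKO (orange) samples, with each sample's replicate number, and the mean as a line with the SD as a bar. Tbx2 was at 0 in 3 cdKO samples, while control replicate 3 was the lowest control sample for every gene but Tbx2.

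Tbx2 showed the largest difference of the 4 genes, with little signal left in the cdKO samples. The gene (ENSMUSG00000000093) lies on the plus strand of chromosome 11 from 85832551 to 85841948 and has 7 exons. Control replicates 1 to 5 had 4.12, 2.61, 0.375, 0.936 and 0.177 CPM, from 411, 272, 33, 69 and 12 counts. The cdKO replicates 1 to 5 had 0, 0, 0.430, 0.119 and 0 CPM, from 0, 0, 35, 10 and 0 counts. Control replicates 1 and 2 were thus well above all other samples, 4 of 5 cdKO samples lay below every control, and cdKO replicate 3 lay within the lower part of the control range. Groups that did not overlap at all were found for 0.224% of the genes tested with cdKO below and 0.179% with cdKO above, and for none of these 4 genes. A count of 0 allows up to 3 counts, which corresponds to 0.0381, 0.0357 and 0.0591 CPM in cdKO replicates 1, 2 and 5, for counting error only.

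The mean Tbx2 level was 1.64 ± 1.68 CPM in control and 0.110 ± 0.186 CPM in cdKO samples (SD, n = 5 each), so cdKO samples had 6.68% of the control level on average. Its log2 fold change was -3.86 ± 1.24 (standard error), with an unadjusted p of 0.00807 by edgeR (Benjamini-Hochberg adjusted p = 0.939), a p that carries the limit of a gene kept by the filter for its higher group. With no filter the value was -3.86 (edgeR unadjusted p = 0.00322, adjusted p = 0.70). The exact two-sided permutation test on mean log2(CPM + 0.5) gave p = 0.0238, where the smallest p that 5 samples against 5 allow is 0.00794. Over the 21 alternative settings the log2 fold change stayed between -5.65 and -3.18 and the lowest adjusted p was 0.521, by limma, so the difference did not pass the threshold in any of them. Leaving out cdKO replicate 3, the only cdKO sample within the control range, gave -5.65, and leaving out control replicate 1, the highest sample, gave -3.18.

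The lower Tbx2 counts were spread along the gene. On each of its 7 exons the mean CPM was lower in cdKO than in control samples. Since 3 cdKO samples had 0 on every exon, the exons restate the difference of the whole gene and are given as a description. Of the 35 counts in cdKO replicate 3, every exon held between 2 and 8, whereas the 10 counts of cdKO replicate 4 lay on exons 6 and 7 only. Control replicate 5 had 8 of its 12 counts on the last exon, and none on exons 1 and 2.

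**Figure D2:**
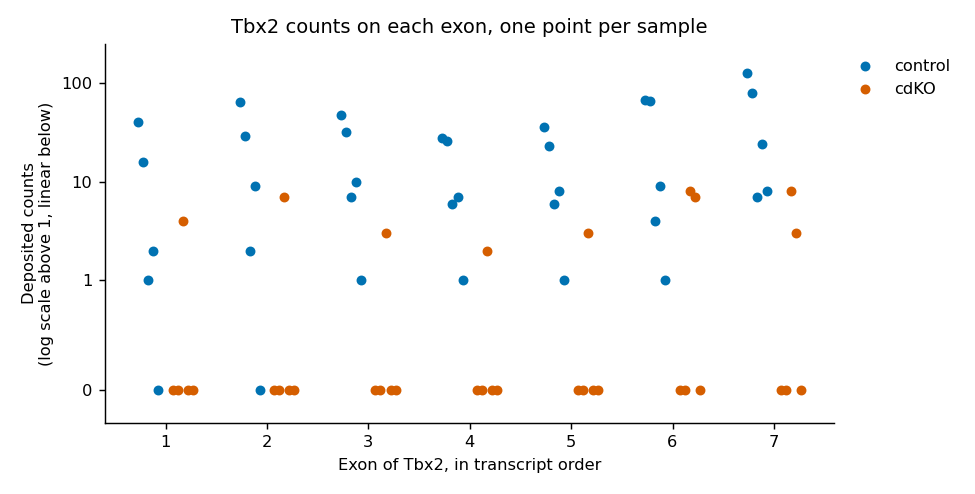
Deposited counts on each of the 7 exons of Tbx2 (horizontal axis, transcript order), one point per control (blue) or cdKO (orange) sample, on an axis that is logarithmic above 1 and linear below. In cdKO replicates 1, 2 and 5 every exon was at 0, and the highest cdKO value on any exon was 8 counts against 127 in control.

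Tbx3, the closest relative of Tbx2 here, differed the other way, with wide scatter. The gene (ENSMUSG00000018604) lies on the plus strand of chromosome 5 from 119670669 to 119684724 and has 9 exon blocks, each a run of touching bins. Control replicates 1 to 5 had 1.03, 0.614, 0.0796, 0.434 and 0.207 CPM. The cdKO replicates 1 to 5 had 4.20, 0.0714, 0.725, 1.01 and 2.86 CPM. Replicates 1 and 5 of the cdKO group were above every control, replicate 2 was below every control, and the other two fell inside the control range.

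The mean of Tbx3 in control samples was 0.474 ± 0.375 CPM, and that in cdKO samples was 1.77 ± 1.71 CPM (SD, n = 5 each), 3.75 times as high. The log2 fold change was 1.89 ± 0.86 (standard error, unadjusted p = 0.0458, edgeR Benjamini-Hochberg adjusted p = 0.939), and the exact two-sided permutation test gave p = 0.167. It was positive in all 22 alternative settings, between 1.28 and 2.40, with an unadjusted p under 0.05 in 7 of them. Without cdKO replicate 1 it was 1.28, and on bins of 1 gene only, which leave out the overlap with Tbx3os1, it was 1.91. Tbx3os1 itself had at most 22 counts in any sample. The summed level of the 8 mesenchyme markers was 14.5 CPM in cdKO replicate 2, the cdKO sample with the least Tbx3, and 26.5 to 29.0 in the other cdKO samples, against 12.2 to 25.5 in control. Of those 8 markers Col1a2 and Twist1 were higher in cdKO samples at an unadjusted p under 0.05 by edgeR, and their part in the Tbx3 values was not tested. Of 8 blood markers, the 5 that could be tested all had a log2 fold change above 0, with a median of 2.05. The globin genes Hba-a1 and Hba-a2 were past an unadjusted p of 0.05. Over all genes tested, 745 (4.18%) were higher at that threshold, and 109 without cdKO replicate 5. With so few genes nothing is read about either list. The summed level of the blood markers was 39.5 and 58.2 CPM in cdKO replicates 3 and 5 and 2.47 to 7.75 in the other cdKO samples, against 0.872 to 14.9 in control. Its part in the values of the 4 genes was not tested.

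Per sample, Tbx2 and Tbx3 did not keep a fixed ratio, a measure chosen after their values were seen and so given with no test. The log2 ratio of Tbx2 to Tbx3, on CPM + 0.5, ranged from -0.06 to 1.59 in control samples and from -3.23 to -0.19 in cdKO samples. Where both genes were below the 0.5 added, that constant drew the ratio toward 0. This was so in control replicate 5 (0.177 and 0.207 CPM) and cdKO replicate 2 (0 and 0.0714 CPM), which gave the values of -0.06 and -0.19. Within cdKO samples the lowest ratios were those of replicates 1 and 5, which had the most Tbx3 and no Tbx2 count.

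Phox2a had similar means in both groups, with wider scatter among the control samples, a difference in spread that was not tested. It lies on the plus strand of chromosome 7 from 101818313 to 101822726 (ENSMUSG00000007946) and has 3 exons. Control replicates 1 to 5 had 2.94, 2.68, 0.284, 1.07 and 4.79 CPM. The cdKO replicates 1 to 5 had 2.51, 2.90, 1.84, 2.03 and 2.99 CPM. Every cdKO sample fell inside the control range, in which replicates 3 and 4 were lowest and replicate 5 highest.

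Group means were 2.35 ± 1.75 CPM for control and 2.46 ± 0.513 CPM for cdKO samples (SD, n = 5 each), and the coefficients of variation were 74.6% and 20.9%. The log2 fold change was 0.06 ± 0.56 (standard error), so an interval of 2 standard errors ran from -1.06 to 1.19 and left differences of either sign possible (edgeR Benjamini-Hochberg adjusted p = 0.999). The exact two-sided permutation test gave p = 0.603. Its sign changed with the setting: without control replicate 3 it was -0.23, without control replicate 4 it was -0.12, and on bins of 1 gene only, which drop the exon shared with Inppl1, it was -0.19. Leaving out control replicates 1 and 5, the pair with low lumbar Hox levels, gave 0.86 (edgeR Benjamini-Hochberg adjusted p = 0.952).

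Tbx20 also had near-equal means, and 2 of its samples stood apart. It lies on the minus strand of chromosome 9 from 24718138 to 24774303 (ENSMUSG00000031965) and has 10 exon blocks. Control replicates 1 to 5 had 3.08, 1.97, 0.0114, 2.22 and 3.43 CPM. The cdKO replicates 1 to 5 had 1.77, 1.93, 1.70, 2.09 and 4.94 CPM. Control replicate 3 had a single Tbx20 count, cdKO replicate 5 exceeded every other sample, and the 8 remaining samples lay between 1.70 and 3.43.

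Mean Tbx20 was 2.14 ± 1.33 CPM in control samples and 2.48 ± 1.38 CPM in cdKO samples (SD, n = 5 each). The log2 fold change was 0.21 ± 0.77 (standard error, edgeR Benjamini-Hochberg adjusted p = 0.999), and the exact two-sided permutation test gave p = 0.698. It was positive in 17 of 22 alternative settings and negative in 5. Without cdKO replicate 5 it was -0.19 and without control replicate 3 it was -0.11, whereas without control replicates 1 and 5 it was 0.82 and with limma-voom 1.25. With control replicate 3 and cdKO replicate 5 both left out, a choice made after their values were seen, it was -0.51 ± 0.31 (standard error, edgeR unadjusted p = 0.126).

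The position of the Tbx20 and Phox2a counts set cdKO replicate 5 apart. All 251 of its Tbx20 counts lay on the last exon, a block of 7655 bases that only 1 of the 3 coding transcripts uses, and the 9 other exon blocks had 0. In the other 4 cdKO samples 18.7% to 29.0% of Tbx20 counts lay on that exon, and in control replicates 1, 2, 4 and 5 between 20.5% and 51.7% did. For Phox2a, cdKO replicate 5 likewise had 90.1% of its counts on the last exon, where 4 cdKO samples had 54.0% to 60.2% and control samples 47.0% to 64.8%. For Tbx3 this sample had 51.0% there, the remaining cdKO samples 18.4% to 50.0% and control samples 25.0% to 85.7%, so it did not stand apart for that gene. Control replicate 5 had the highest control share for Phox2a, Tbx2 (66.7%) and Tbx3, and for Tbx20 once the single count of control replicate 3 is set aside.

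On all exons but the last, again chosen after these values were seen, the log2 fold change of Tbx20 became -0.29 ± 1.01 and that of Phox2a -0.19 ± 0.61 (standard errors). Tbx2 and Tbx3 changed little by that choice, to -3.71 and 1.99. The same library held the highest summed level of the 6 heart markers, 12.1 CPM against 1.91 to 3.49 in the other 9 samples. Of that sum 9.18 CPM came from Myl7, and Myl4 was also at its highest there, at 1.93 CPM. Tnnt2, at 0.965 CPM, was within the range of the other samples. Nkx2-5 and Gata4 were at 0 counts there, but had at most 3 and 8 counts in any sample. The part of heart markers in the values of the 4 genes was not tested.

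**Figure D3:**
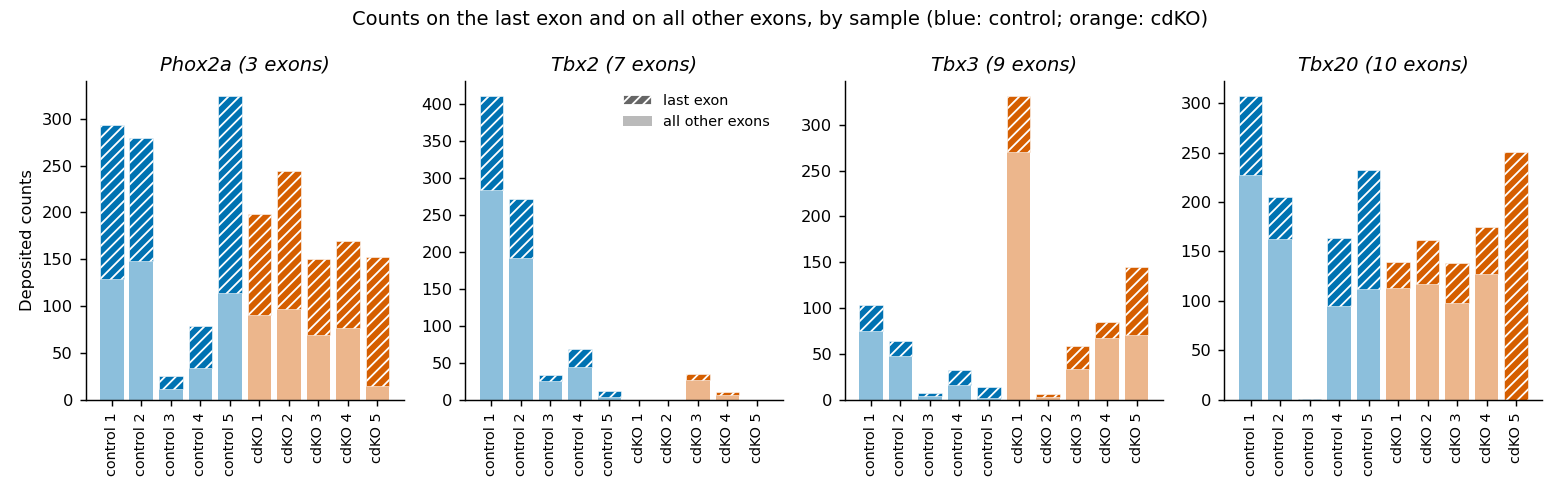
Deposited counts (vertical axes, linear) on the last exon (dark, hatched) and on all other exons together (light) of each gene in the 10 samples, control in blue and cdKO in orange. In cdKO replicate 5, 251 of 251 Tbx20 counts and 90.1% of Phox2a counts were on the last exon, and Tbx2 had none.

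Levels can be compared between the genes only per length of exon bins. In control samples the mean CPM per kb was 1.16 ± 0.862 for Phox2a, 0.453 ± 0.464 for Tbx2, 0.179 ± 0.111 for Tbx20 and 0.0715 ± 0.0566 for Tbx3 (SD, n = 5 each). In cdKO samples it was 1.21 ± 0.252 for Phox2a, 0.268 ± 0.258 for Tbx3, 0.207 ± 0.115 for Tbx20 and 0.0303 ± 0.0514 for Tbx2 (SD, n = 5 each). Phox2a was the highest of the 4 genes in all 10 samples, although its range in control, from 0.140 to 2.35 CPM per kb, overlapped those of the other 3 genes. The lowest gene was Tbx3 in 4 of 5 control samples and Tbx2 in 4 of 5 cdKO samples. All neighbours in the control order overlapped. In cdKO samples Tbx3 and Tbx20 overlapped, whereas the lowest Phox2a value of 0.906 CPM per kb exceeded the highest Tbx3 value of 0.635, and the lowest Tbx20 value of 0.141 exceeded the highest Tbx2 value of 0.119. The orders were the same on the longest bin of each gene.

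Set against other transcripts of these cells, the genes were scarce. Phox2a had a higher level per kb in control samples than 37.5% of the genes tested, Tbx2 than 24.0%, Tbx20 than 12.2% and Tbx3 than 4.35%. Mnx1, a somatic motor neuron factor, reached 24.7 ± 7.38 CPM per kb in control and 24.5 ± 5.85 in cdKO samples (SD, n = 5 each).

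Phox2a and Tbx20 varied together between samples more than any other pair of the 4 genes. Over the 10 samples and 6 pairs, Pearson's r of log2(CPM + 0.5) was 0.845 for this pair (permutation p = 0.00946, 0.0568 after Benjamini-Hochberg adjustment) and Spearman's rho was 0.721 (permutation p = 0.0227, 0.136 adjusted). Without control replicates 3 and 4, the samples farthest from the median of Phox2a, r was 0.606. The other pairs had r between -0.150 and 0.428, with permutation p of 0.227 or more. Within-group deviations gave Phox2a and Tbx20 an r of 0.837, so the relation was not one between the groups. Without control replicate 3, which was low in both genes, r was 0.482 (a choice made after its values were seen).

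**Figure D4:**
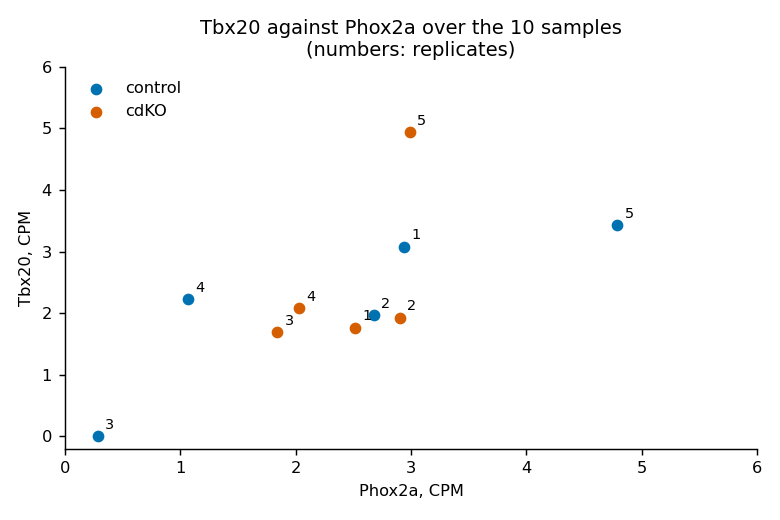
Tbx20 against Phox2a, CPM on linear axes, for 5 control (blue) and 5 cdKO (orange) samples with replicate numbers. Control replicate 3 lies at the low end of both axes, at 0.284 CPM of Phox2a and 0.0114 of Tbx20.

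Among the 10173 tested genes with a mean of at least 5 CPM, the homeodomain gene Nkx6-2 (r = 0.929, or 0.797 without control replicate 3) and the mitochondrial carrier gene Slc25a14 (r = 0.894) were among the 3 most like Phox2a over the 10 samples. For Tbx2 the 3 were Ppp2r2b, a regulatory subunit gene of protein phosphatase 2A (r = 0.869), the retinoid X receptor gene Rxrg (r = 0.834) and Fam19a5 (r = 0.833). Those most like Tbx3 were Syngr3, which encodes a synaptic vesicle protein (r = 0.938), the lipid droplet gene Bscl2 (r = 0.931) and the muscle kinase gene Speg (r = 0.929). Fam219b (r = 0.828) and Fah, which encodes an enzyme of tyrosine breakdown (r = 0.815), were among the 3 most like Tbx20. Each set of 3 was picked as the highest of 10173 genes over 10 samples. A search of that size can return a high r for unrelated genes, so these are descriptions with no test. Every r also carries the differences in depth and composition between the 10 libraries. Ppp2r2b had 26.9, 16.8, 16.4, 16.8 and 6.27 CPM in control replicates 1 to 5 and 3.90 to 6.51 CPM in cdKO samples, and so had its highest value in the same sample as Tbx2.

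Of the 14 other T-box family genes, 3 passed the filter and none was past an unadjusted p of 0.05, a count too small to set apart from the 4.99% over all genes tested. Tbx1, a pharyngeal arch factor, had a log2 fold change of -0.37 ± 0.74, Tbx6, a paraxial mesoderm factor, one of -0.24 ± 0.62, and Mga, a partner of MAX with a T-box domain, one of -0.71 ± 0.58 (standard errors). The other 11 did not pass the filter. Of these, 6 had at most 3 counts in every sample, among them Tbx5, Tbx15 and Tbx22 with none at all. The highest counts among the rest were 19 for Tbx21 in control replicate 1, 17 for Tbx18 in cdKO replicate 4 and 15 for T in cdKO replicate 5, as many as some samples had for Tbx2.

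The list of 14 other branchial and visceral motor neuron genes had 13 members tested, of which none was past an unadjusted p of 0.05, where the share over all genes was 4.99%, with 4 above and 9 below 0. Their median log2 fold change was -0.08, against -0.02 over all genes tested. The highest was 0.83 ± 0.56 for Gata3, a zinc finger factor used in several neuron types, and the lowest -0.84 ± 0.62 for Nkx2-9 (standard errors). For Nkx2-9, a homeodomain gene of ventral progenitors, 84.5 CPM in control replicate 5 stood against 7.89 to 14.5 in the other controls. In the same sample the summed level of 7 hindbrain genes was 241 CPM, against 100 to 115 in the other controls and 78.0 to 132 in cdKO samples, and this sample also had the most Phox2a. The part of that in the Phox2a level was not tested.

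Of 8 noradrenergic genes, 5 were tested and 1 was past an unadjusted p of 0.05, beside 4.99% of all genes in either direction and 0.818% lower in cdKO samples. From a single gene nothing is read about the list. Slc18a2, the vesicular monoamine transporter gene, had 16.4, 9.78, 10.6, 18.5 and 12.8 CPM in control replicates 1 to 5 and 6.13, 8.83, 7.56, 12.4 and 3.35 CPM in cdKO replicates 1 to 5. All cdKO samples but replicate 4 were below every control (log2 fold change -0.83 ± 0.36, standard error, unadjusted p = 0.0378, edgeR Benjamini-Hochberg adjusted p = 0.939). The highest of this list was Insm1, at 0.94 ± 0.76 (standard error). Dbh, which makes noradrenaline from dopamine, averaged 3.20 ± 1.34 and 3.30 ± 1.46 CPM (SD, n = 5 each).

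All 12 somatic and general motor neuron genes were tested, and 1, lower in cdKO samples, was past an unadjusted p of 0.05. Over all genes the share was 4.99% in either direction and 0.818% lower in cdKO samples. With only 1 such gene nothing is read about the list. Isl1, the LIM homeodomain factor shared by somatic and visceral motor neurons, had means of 225 ± 80.5 CPM in control and 127 ± 32.9 CPM in cdKO samples (SD, n = 5 each), or -0.83 ± 0.31 as a log2 fold change (standard error, unadjusted p = 0.0180, edgeR Benjamini-Hochberg adjusted p = 0.939). By immunostaining, the study reports a strong decrease of Isl1 in laterally placed motor neurons of cdKO embryos. The intermediate filament gene Prph was the highest of the list at 0.87 ± 0.60 (standard error).

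The sign of the log2 fold change was thus the same over the alternatives for Tbx2 and Tbx3, neither of which passed the adjusted threshold, and not for Phox2a and Tbx20. All alternatives used these same libraries or a part of them, so a constant sign is a description and not separate support. The widest departure was that of limma-voom with sample quality weights, with 1.53 ± 0.61 for Phox2a and 3.32 ± 1.22 for Tbx20 (standard errors, limma adjusted p = 0.526 and 0.521).

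**Figure D5:**
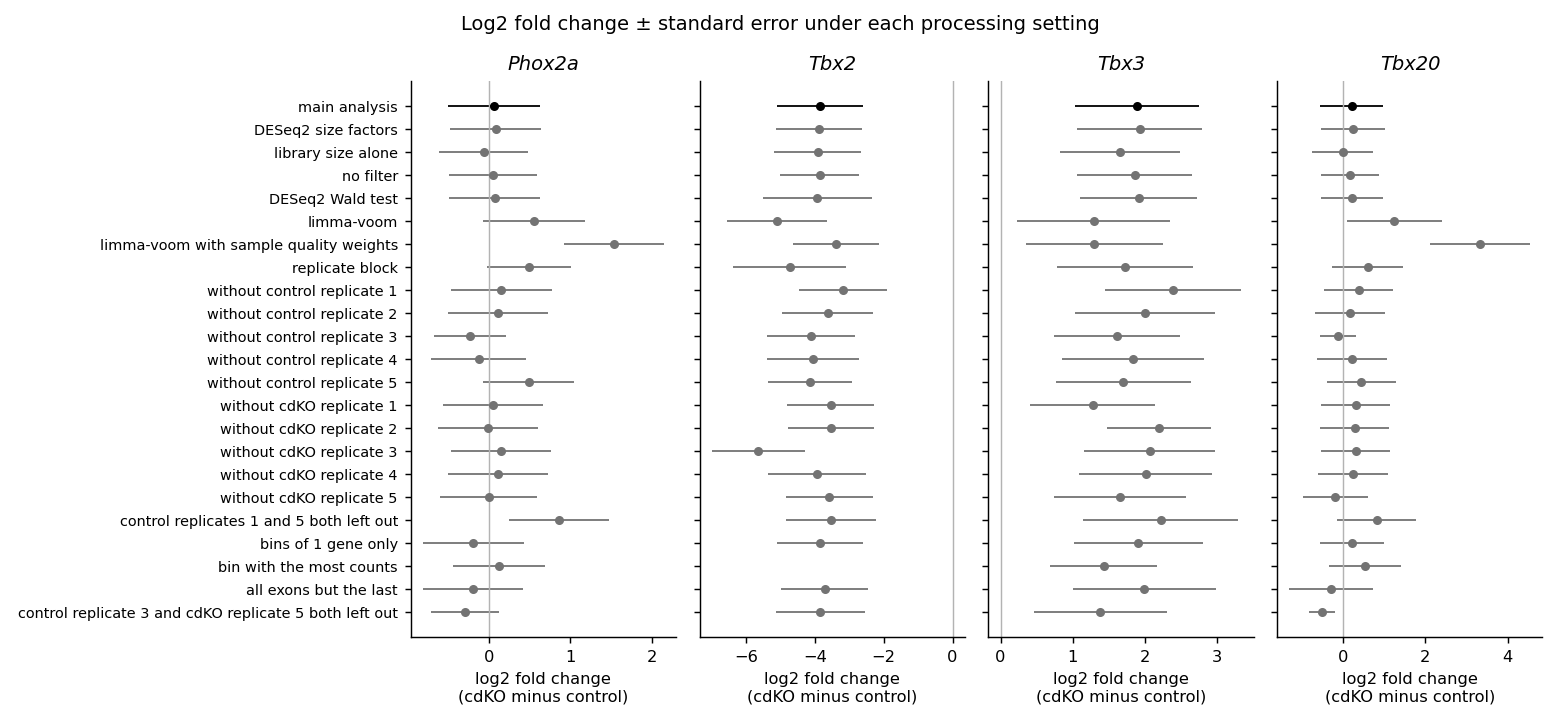
Log2 fold change of each gene, cdKO minus control (horizontal axes), with its standard error under the main analysis (black) and each alternative (grey, rows). Tbx2 stays below 0 and Tbx3 above 0 in every row shown, while Phox2a and Tbx20 lie on both sides of 0.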

How the data were processed

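RNA-seq was analysed in 10 samples, 5 control and 5 cdKO, grouped by the genotype in the labels. The authors deposited raw counts per exon bin for each sample, not normalized. The submitters' processing notes name bcl2fastq 2.17, Trimmomatic 0.36, STAR 2.5.2b, Subread 1.5.2, DESeq2 and GRCm38, without roles. A read was counted on each bin it overlapped and strand was not used: all 16 intervals listed on both strands had equal counts. The 425461 bins were given to genes by position in GENCODE M21, a bin of several genes to the only protein-coding one. Bins with 1.19% of counts went to no gene. Of 49644 gene identifiers, 49384 were found in that annotation.

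Low counts were removed by filterByExpr with a minimum count of 10. The TMM-scaled gene counts were compared by the quasi-likelihood test of edgeR 4.0.16 in R 4.3.3, adjusted by Benjamini-Hochberg across the whole table, at a threshold of 0.05. Exact two-sided permutation tests compared mean log2(CPM + 0.5) over 252 arrangements, and correlations used 100000 resamples. Alternatives were DESeq2 1.42.0, limma-voom (limma 3.58.1) with and without sample weights, other scalings, filters and bins, the replicate number as a block, and samples left out. Fits were tested on simulated data. The genes and lists were chosen with earlier results of these data known. Genes named are the 4 genes, the 3 Onecut genes, list members past an adjusted or else an unadjusted p of 0.05 and the extremes of each list, and the 3 genes most correlated with each of the 4 among genes of at least 5 CPM. Not every gene this rule selects is reported here. Marker lists are given by counts and summed levels, and genes named beyond this rule (Dbh, Mnx1, Olig2, single markers) were chosen after their values were seen.

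Totals count overlaps between reads and bins, from 63932395 to 107709534 per sample. The floor of 3 counts, which covers counting error only since reads are not independent molecules, was 0.0288 to 0.0591 CPM. No 2 samples of a group were duplicates, with chi-square per degree of freedom of at least 111. The sample titles give e10.5 throughout, while the descriptions give a different number for each sample. The titles' stage was used.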

Additional observations from a re-analysis of the deposited data

Results flagged for a closer look

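In 50 sets of 5 samples examined, 11 had a sample far from its group. The cut-off used would mark about 1 in 20, or 2.5, if the values were normally distributed. These sets come from the same 10 libraries and some values lie at or near 0, so 2.5 is not their chance count and no excess is read. Among the 4 genes the flags were Tbx2 in cdKO replicate 3, at 0.430 CPM where the remaining cdKO samples had 0 to 0.119, and Tbx20 in cdKO replicate 5, at 4.94 CPM against 1.70 to 2.09. Replicate 5 of the cdKO group was involved in 5 of the 11, with 198569 bins with counts against 254982 to 264487, 19.2 CPM of Onecut2 against 1.35 to 6.50, a heart marker sum of 12.1 CPM against 1.95 to 3.49 and a floor plate and roof plate sum of 99.6 CPM against 36.8 to 41.3. Of that last sum 74.7 CPM was Ntn1, and Shh was also at its highest there, at 9.31 CPM. Foxa2 (13.5 CPM), Lmx1a (0.827 CPM) and Msx1 (1.34 CPM) were within the range of the other cdKO samples.

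Control replicate 5 was involved in 3, with a V3 interneuron marker sum of 99.8 CPM against 24.0 to 31.1, an endothelium sum of 3.38 CPM against 1.60 to 1.84 and a hindbrain level sum of 241 CPM against 100 to 115. Of that V3 sum 84.5 CPM was Nkx2-9, a gene of ventral progenitors. The V3 markers Sim1 (0.148 CPM) and Uncx (0.0443 CPM) were lower there than in any other sample. The endothelium sum of control replicate 5 came from Kdr (1.82 CPM) and Pecam1 (1.43 CPM), each at its highest control value. Cdh5 and Tek had 0 counts there, as in some other controls, and Cldn5 (0.133 CPM) was at its lowest control value. The 2 remaining flags were control replicate 2, whose 10 highest genes held 7.09% of counts against 4.93% to 5.41%, and cdKO replicate 2, whose mesenchyme sum of 14.5 CPM compared with 26.5 to 29.0. Control replicate 3, the lowest control in Phox2a, Tbx3 and Tbx20, did not stand apart by this measure.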

How the results depend on the processing

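None of the 4 genes passed an adjusted p of 0.05 in any setting. Tbx2 stayed negative and Tbx3 positive throughout, and with the replicate block they were -4.74 and 1.73, and Phox2a and Tbx20 0.50 and 0.60 (adjusted p = 0.915 to 0.917 by edgeR). Phox2a was -0.062 with library size alone, -0.19 on bins of 1 gene, -0.19 on all exons but the last and -0.29 without control replicate 3 and cdKO replicate 5 together; leaving out 1 sample gave -0.23 to 0.49. Tbx20 was -0.0095 with library size alone, -0.29 on all exons but the last, -0.51 without that pair of samples, and -0.19 to 0.44 with 1 sample left out. Scaling by library size moved the median of all genes from -0.02 to -0.15, and relative to that median Phox2a was 0.088 and Tbx20 0.14. Sample quality weights in limma-voom gave 1.53 for Phox2a (unadjusted p = 0.0257) and 3.32 for Tbx20 (0.0174). The causes were not tested. Tbx2 had no value on the bin with the most counts, where it did not pass the filter.

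Genes past an adjusted p of 0.05 numbered 1 with library size, 1 with no filter, 19 with DESeq2, 3 and 13 with limma-voom without and with weights, and 0 to 4 with 1 sample left out. With no adjustment (p under 0.05) the counts came to 1255 higher and 862 lower with no filter, 956 and 469 with DESeq2, 163 and 159 with limma-voom, 837 and 693 with weights, 355 and 138 without control replicates 1 and 5, and 68 and 232 without control replicate 3 and cdKO replicate 5. Without cdKO replicate 5 alone they were 109 and 319, and over the other samples left out 227 to 1137 and 83 to 358. Deviations of same-numbered samples had correlations of 0.0783, -0.257, 0.114, 0.321 and 0.283 for numbers 1 to 5. Their mean was 0.108, against -0.0147 for samples of other numbers, and 4 of 10 samples correlated best with their own number. The meaning of the numbers is not stated, so samples were not treated as pairs. The block gave 289 higher and 172 lower at an unadjusted p under 0.05 by edgeR, and none past the adjusted threshold. Without control replicate 3, r was -0.0442 for Phox2a and Tbx3 and -0.0336 for Tbx2 and Tbx20.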
